A study of Mus musculus with 6 samples.

Results

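The interferon regulatory factor (IRF) genes encode transcription factors that share a DNA-binding domain for GAAA repeats, such as those of the interferon-stimulated response element (ISRE). Irf3 and Irf7 are switched on by sensors of viral nucleic acid and induce interferon genes, Irf9 acts at the ISRE downstream of the interferon receptors, and Irf1 and Irf2 act at the same elements as activator and antagonist. Irf4, Irf5 and Irf8 are used mainly by blood and immune cells, where they direct lymphocyte, macrophage and dendritic cell programmes. Interferon drives dormant blood stem cells into cycle, and in the mouse Irf2 protects their quiescence.

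The loci of 8 members (Irf1, Irf2, Irf3, Irf4, Irf5, Irf7, Irf8 and Irf9) were examined in ATAC-seq peak lists, in which a transposase marks accessible DNA, of long-term haematopoietic stem cells. A locus was the gene body with 50 kb on each side on the mm10 assembly. Peaks sharing 1 bp or more in any of the 6 lists were merged, and 444 of the 882758 merged regions lay at the 8 loci. Irf1, Irf2, Irf3, Irf7 and Irf9 were classed as ubiquitous or widely inducible, and Irf4, Irf5 and Irf8 as lineage-restricted, from textbook knowledge. These classes held 267 and 177 regions.

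There were 3 aged and 3 young samples of C57BL/6 bone marrow. Both ages had the same sort (lineage-negative, Kit and Sca1 positive, Flk2 and Cd34 negative) and the same overnight culture at 3% oxygen in buffered saline with serum. The labels give no age in weeks, no sex, and do not say whether the samples are separate animals. Each title also carries an experiment number, which 1 aged and 1 young sample share, and another number, which is the same in both samples for replicates 2 and 3 but not for replicate 1; the labels explain neither. The p-values therefore measure only the spread of these samples, which may be technical. With 3 lists per age an exact 2-sided permutation test cannot give a p below 0.1.

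The aged lists held 129137 to 244692 distinct peaks and the young lists 110596 to 263956; the number of reads behind them is unknown. Aged replicate 3 and young replicate 2 stood apart: of regions present in each of the 5 other lists they called 75.6% and 62.3%, against at least 97.4% in the 4 remaining lists. Young replicate 2 had 224 peaks at a -log10 q of at least 5, against at least 6005 elsewhere. The labelled cell type was checked at gene starts. Of 10 stem-cell markers, all 6 lists called 7 and 5 or more lists called all 10, against 31.4% and 46.6% of 21631 protein-coding genes. None of the B cell (6), T and NK cell (6), myeloid (8) and erythroid (5) markers was called in all 6 lists, and Elane, Ctsg, Prtn3 and Hbb-b1 were called in no list. Of 5 dendritic cell markers Bst2 alone was called in all 6 lists, at a mean percentile of 97.3.

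The promoters of Irf3, Irf5 and Irf9 held none of the 4 motifs described below. The promoter letters of the 5 members that held any of these motifs are shown. Each is the stretch from 250 bases before to 50 after the first RefSeq start (GRCm38.p6, the assembly that mm10 names), read 5′ to 3′ along the gene. Capitals mark 4 motifs, searched on both strands. They are the ISRE (GAAA and GAAA with any 2 bases between), the gamma-activated site (GAS, TTC and GAA with any 3 bases between), an ETS-IRF composite element (GGAA and GAAA with any 2 bases between) and the TATA box (TATAAA). Irf1 (chr11:53769764-53770063, plus strand) and Irf2 (chr8:46739495-46739794, plus strand) had start regions called in every list. Irf4 (chr13:30748983-30749282, plus strand), Irf7 (chr7:141266375-141266674, minus strand) and Irf8 (chr8:120736108-120736407, plus strand) did not.
Irf1: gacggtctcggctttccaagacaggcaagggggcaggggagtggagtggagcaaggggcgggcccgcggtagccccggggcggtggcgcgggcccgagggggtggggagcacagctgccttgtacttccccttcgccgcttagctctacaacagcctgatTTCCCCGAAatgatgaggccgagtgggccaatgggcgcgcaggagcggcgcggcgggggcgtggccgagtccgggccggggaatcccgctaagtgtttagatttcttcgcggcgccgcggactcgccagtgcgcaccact
Irf2: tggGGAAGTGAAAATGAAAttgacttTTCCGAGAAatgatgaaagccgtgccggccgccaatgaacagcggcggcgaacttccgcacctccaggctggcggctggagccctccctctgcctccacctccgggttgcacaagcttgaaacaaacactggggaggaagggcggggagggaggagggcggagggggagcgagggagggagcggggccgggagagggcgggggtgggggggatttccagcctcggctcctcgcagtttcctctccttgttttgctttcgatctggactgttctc
Irf4: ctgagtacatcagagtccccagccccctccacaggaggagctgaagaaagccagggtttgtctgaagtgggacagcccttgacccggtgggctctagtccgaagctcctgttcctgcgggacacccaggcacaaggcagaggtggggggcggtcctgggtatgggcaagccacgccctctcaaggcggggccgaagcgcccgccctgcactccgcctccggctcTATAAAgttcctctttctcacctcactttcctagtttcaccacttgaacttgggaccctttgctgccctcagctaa
Irf7: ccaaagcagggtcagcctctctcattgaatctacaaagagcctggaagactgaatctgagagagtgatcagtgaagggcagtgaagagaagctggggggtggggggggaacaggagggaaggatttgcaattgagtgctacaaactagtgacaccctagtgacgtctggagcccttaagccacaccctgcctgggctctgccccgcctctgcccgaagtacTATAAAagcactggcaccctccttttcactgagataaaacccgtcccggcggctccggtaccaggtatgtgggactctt
Irf8: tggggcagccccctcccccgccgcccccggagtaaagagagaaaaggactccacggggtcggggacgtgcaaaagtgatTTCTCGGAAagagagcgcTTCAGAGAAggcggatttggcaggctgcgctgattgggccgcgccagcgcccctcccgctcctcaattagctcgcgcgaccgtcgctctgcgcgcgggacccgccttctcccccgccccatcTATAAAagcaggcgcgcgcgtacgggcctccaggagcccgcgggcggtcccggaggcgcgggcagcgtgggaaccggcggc

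Irf2 was the only one of the 8 with an ISRE, whose first base is at -241 from the gene start and which overlaps an ETS-IRF composite element at -247. Among 17274 protein-coding promoters of this length, 3.43% hold an ISRE and 2.67% the composite element. The GAS letters were found in Irf1, Irf2 and Irf8, against 7.87% of all promoters. In Irf1 the GAS is at -90 (chr11:53769924-53769932), and in Irf2 it is at -224 (chr8:46739521-46739529). Peaks of all 6 lists covered the Irf1 site, the Irf2 site and the Irf2 ISRE. Irf8 held a pair of GAS matches, at chr8:120736187-120736195 and chr8:120736205-120736213. Peaks covered the outer one in 2 lists (aged replicate 2 and young replicate 3) and the inner one in 4.

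The TATA letters were found in Irf4, Irf7 and Irf8, at -26, -29 and -31 from the start in that order, and in none of the 5 other members. The Irf7 distances use the first listed start, chr7:141266424. It lies inside the gene span, which reaches to chr7:141266499 on the minus strand, as do the Irf7 TATA letters (chr7:141266448-141266453). TATA promoters made up 13.4% of all promoters, and 13.0% of them were called in all 6 lists, against 34.7% of promoters without the letters. Their median count of CpG pairs was 3, against 16 without the letters, and TATA and CpG content were not tested apart. Irf4, Irf7 and Irf8 held 11, 7 and 38 CpG pairs. Across all promoters the share called in all 6 lists also moved with CpG content, at 2.04% with 0 to 4 CpG pairs, 20.8% with 5 to 14, 50.9% with 15 to 24 and 58.5% with 25 or more. Irf5, Irf8 and Irf9 were on the less common side of these shares, as many promoters were. The Irf5 promoter held 35 CpG pairs and its start region was called in 4 lists, that of Irf8 held 38 and was called in 5, and that of Irf9 held 9 and was called in all 6. Matches of letters are descriptions and not binding sites.

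The start regions of Irf1, Irf2, Irf3 and Irf9 were called in all 6 lists, as were 31.4% of all protein-coding start regions. Each value below is the percentile of the region's -log10 p among the peaks of its own list, so that 100 is the strongest peak, and 0 stands for no call in any mean. Irf1 ranked at 97.6, 97.7 and 91.2 in aged replicates 1 to 3, against 98.5, 98.2 and 97.5 in young replicates 1 to 3 (chr11:53769681-53770540). Its lowest list was aged replicate 3, and the ages overlapped. Irf2 (chr8:46739364-46739867), which it shares with the start of the non-coding gene Gm16675, ranked at 99.5, 99.7 and 98.8 in aged lists, against 99.6, 53.8 and 98.7 in young lists. Young replicate 2 alone was low. There the Irf2 peak was 2.64-fold over background with a -log10 q of 0.974, whereas the 5 other lists had 8.97-fold to 20.3-fold.

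Irf3 shares its start region with Bcl2l12, a gene that runs the other way (chr7:44997145-44998019). It ranked at 98.0, 97.1 and 98.8 in aged lists, against 98.9, 99.4 and 98.5 in young lists, and was at or above 97.1 in every list, young replicate 2 included. Which of the pair of genes the region serves cannot be told apart. Irf9 ranked at 95.3, 96.1 and 96.4 in aged lists, against 98.3, 97.2 and 94.1 in young lists (chr14:55603737-55604621). The ages overlapped, and Irf1, Irf3 and Irf9 were at 91.2 or above in every list.

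Irf7, the interferon-inducible member of the ubiquitous class, was called at its start in 3 lists. It had no call, 69.6 and 91.4 in aged lists, against no call, no call and 83.1 in young lists (chr7:141265996-141266580). Aged replicate 1 and young replicate 1, which call nearly all shared regions, were both without it. Fold enrichments ran from 3.25 to 6.34 where it was called. In aged replicate 1 and young replicate 1 a region upstream of Irf7, inside the cadherin-related gene Cdhr5 (chr7:141268730-141269188), was called, at 60.6 and 94.3. Aged replicate 2 had it at 81.8 and young replicate 3 at 75.2.

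No lineage-restricted member had its start region called in all 6 lists. Irf4, which lymphocytes use in activation and plasma cell formation, ranked at 97.2, 91.5 and 88.2 in aged lists, against 92.1, no call and 78.1 in young lists (chr13:30749028-30749438). Irf8, which monocytes and dendritic cells require, ranked at 91.6, 86.8 and 75.8 in aged lists, against 92.8, no call and 91.8 in young lists (chr8:120735967-120736470). Both were called in every list but young replicate 2. In the 5 lists that called Irf8 the fold enrichment ran from 3.81 in aged replicate 3 to 13.5 in young replicate 3. Irf5, a mediator of Toll-like receptor signals, was the weakest of the 3. Its start region ranked at 24.8, 84.6 and no call in aged lists, against 47.9, no call and 81.0 in young lists (chr6:29526414-29527174).

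At a -log10 q of at least 1.3, a q-value of about 0.05, Irf5 was left in aged replicate 2 and young replicate 3 alone. Irf2 then lost young replicate 2, and Irf1, Irf3 and Irf9 were in all 6 lists. A stronger Irf5 region lay inside the gene, 2487 bp from the first start (chr6:29528851-29529373). It ranked at 95.99, 80.1 and 83.0 in aged lists, against 94.5, no call and 82.5 in young lists, above the start region in aged replicates 1 and 3 and both young lists that called it.

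**Figure D1:**
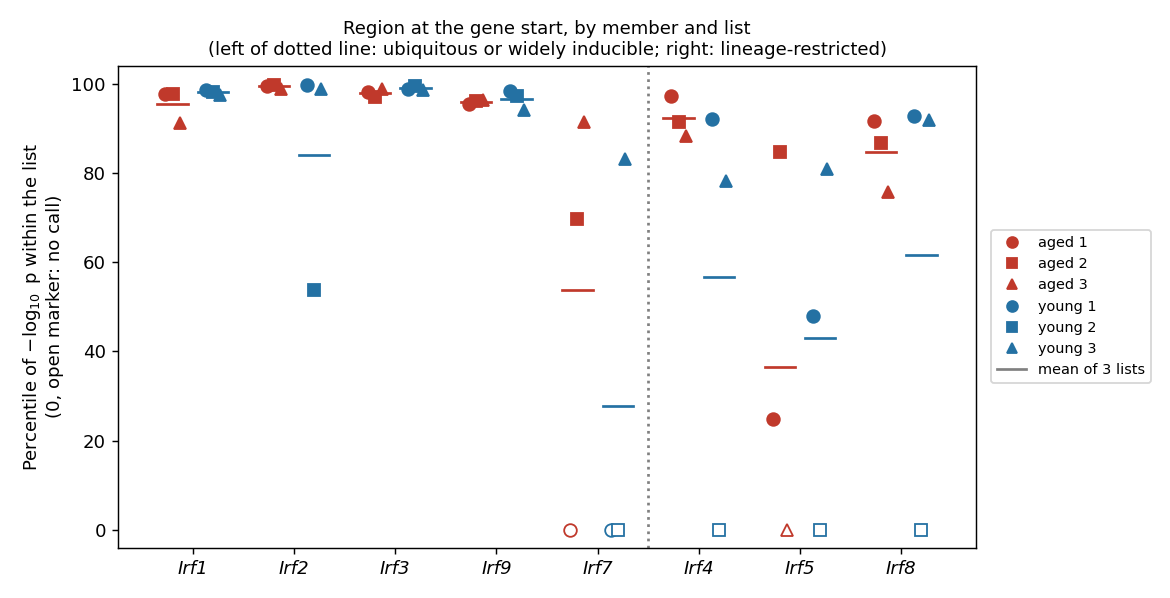
Percentile of the start region within each list (y axis, 0 with an open marker for no call) for the 8 members (x axis), aged lists in red left of young lists in blue, with horizontal bars for the mean of 3 lists. Irf1, Irf3 and Irf9 are at or above 91.2 in all lists, Irf2 is low in young replicate 2 alone, and Irf4, Irf5 and Irf8 have no call there.

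Peak summits lay between -357 and 484 bp from the starts used, negative values being upstream. For Irf4 they ran from -74 to -40 bp in 5 lists, and for Irf8 from -62 to -7 bp. Irf1 summits ran from -220 to 29 bp, and Irf7 summits from -50 to 11 bp. Irf2 summits ran from -179 to -33 bp, the closest being that of young replicate 2. Irf9 summits lay after the start, between 25 and 139 bp. For Irf3 the summit was between -357 and -345 bp in 5 lists and at -8 bp in aged replicate 1. The Irf5 summits were the most scattered, from -158 to 484 bp from the first listed start. That start, chr6:29526625, lies inside the gene span, which begins at chr6:29526130. The other Irf5 distances and its CpG count use the same start.

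**Figure D2:**
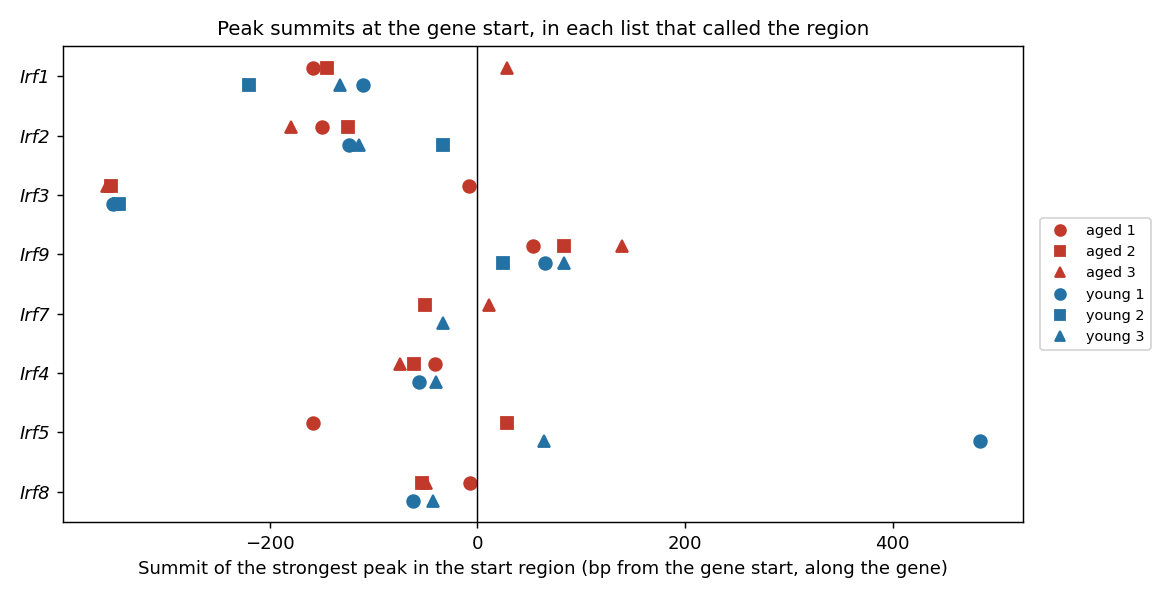
Position of the summit of the strongest peak in each start region (x axis, bp along the gene from the first RefSeq start at 0) for each member (y axis), with 1 marker for each list that called the region, aged in red above young in blue. The Irf4 summits span -74 to -40 bp, whereas those of Irf5 reach from -158 to 484 bp.

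Regions were then counted over whole loci. Of the 444 regions, 333 (75%) were called in 1 list alone, against 85.2% of all regions. In 3 or more lists were 68 (15.3%, against 5.53% of all regions), and in all 6 lists 19 (4.28%, against 1.09%). A gene-centred window holds gene starts by design, and such starts are often shared between lists. Of the 19 regions, 4 were the start regions of Irf1, Irf2, Irf3 and Irf9, and 9 lay within 1 kb of the start of another gene. All 19 were at ubiquitous loci: 5 each at Irf3 and Irf9, and 3 each at Irf1, Irf2 and Irf7. Irf4, Irf5 and Irf8 had none.

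The absence of such regions at the lineage-restricted loci rested on the lists with the lowest rate of calling. Over the 4 lists without aged replicate 3 and young replicate 2, a comparison chosen after seeing the data, all 3 lineage-restricted start regions were called in each list, as were 51.9% of protein-coding start regions. In these lists 13 of 177 regions (7.34%) at lineage-restricted loci and 37 of 267 (13.9%) at ubiquitous loci were called in all, against 2.94% of all regions. Of the 13, Irf8 had 6, Irf4 had 4 and Irf5 had 3. With regions at the starts of other genes left out, the counts were 12 of 163 (7.36%) at lineage-restricted loci and 24 of 233 (10.3%) at ubiquitous loci. The loci also differ in their neighbours: 10 other genes start within the Irf9 locus and 7 within that of Irf7, but none within that of Irf4.

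**Figure D3:**
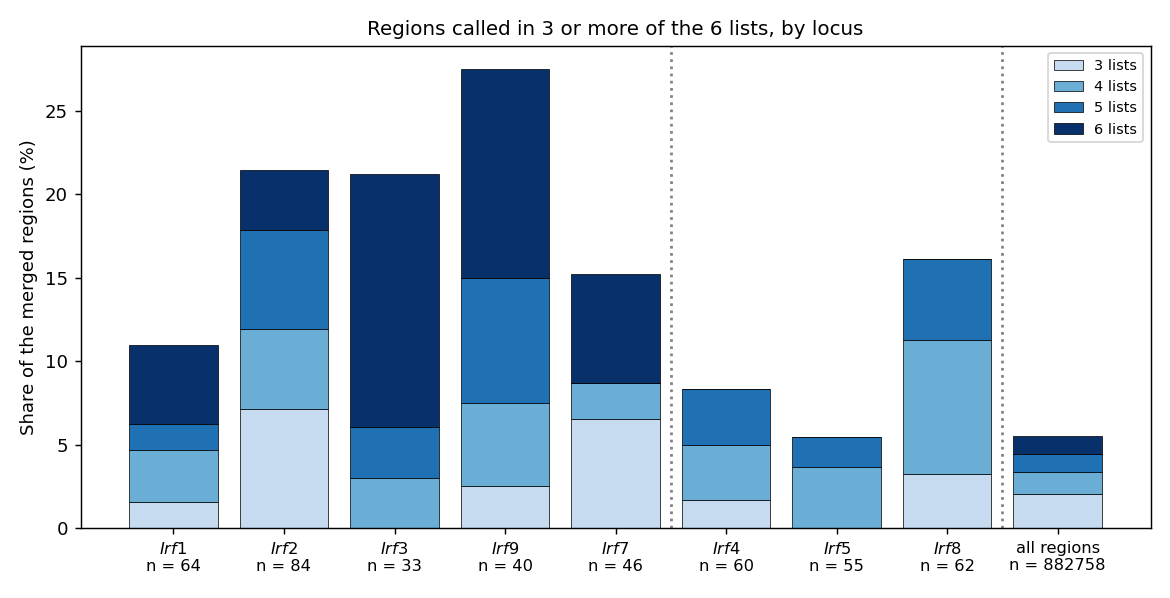
Share of merged regions (y axis, percent) called in 3, 4, 5 or 6 lists (shades, light to dark) at each locus and over all 882758 regions (right). Irf3 and Irf9 have 5 regions each in all 6 lists, Irf4, Irf5 and Irf8 have none, and Irf5 is close to the share over all regions.

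Distal regions of the ubiquitous members were examined by their position. Irf1 had a region at -6186 bp, between genes, at 98.2, 94.4 and 96.8 in aged lists, against 96.5, 55.6 and 94.4 in young lists (chr11:53763435-53764222). It contains the hairpin of Mir7671. Another lay 25170 bp after the start, inside the non-coding gene Gm12216, at 93.6, 95.03 and 93.8 in aged lists, against 96.3, 88.8 and 94.6 in young lists (chr11:53794787-53795582). Both were called in all 6 lists and stood as high as many start regions. Weaker regions at -32751 and -32312 bp were called in 4 and 5 lists.

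Irf2 had the largest gene body, of 107714 bp, and 18 of its 84 regions were in 3 or more lists. Its window was the longest, at 208 kb, and held 8.67 such regions per 100 kb, against 10.4 at Irf9. One inside the gene, 79131 bp from the start, ranked at 98.1, 94.6 and 75.8 in aged lists, against 98.0, 61.5 and 92.1 in young lists (chr8:46818404-46819349). Past the end of the gene lay a run of 7 regions in 4 or more lists, between 109336 and 149015 bp from the start. The strongest ranked at 99.2, 93.1 and 88.2 in aged lists, against 96.3, 22.3 and 93.2 in young lists (chr8:46869406-46870066). The first of the run, at chr8:46848916-46849246, ranked at 87.6, 92.7 and 98.0 in aged lists, against 94.8, no call and 92.1 in young lists. Over the 4 lists with high rates of calling, 12 regions of the Irf2 locus were called in all, against 9 at Irf9 in a window of 106 kb.

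At the Irf3, Irf7 and Irf9 loci, regions at the starts of neighbours were called in all 6 lists. At Irf3 they belonged to Rras, a small GTPase gene, at a mean percentile of 99.6, to Prmt1, a histone arginine methyltransferase gene, at 95.1, and to Scaf1 at 91.9. At Irf9 they included those of Dcaf11 at 98.2, of Psme1, an activator of the immunoproteasome, at 96.2, and of Psme2 and Rnf31, which share a region, at 93.9. At Irf7 the start regions of Rassf7 (96.6) and Phrf1 (89.9) were called in all 6 lists. The strongest region of the Irf7 locus lay between genes, 44507 bp from Irf7 along the gene's direction and beside the Mir210 hairpin (chr7:141221384-141221493). It ranked at 99.8, 97.2 and 99.5 in aged lists, against 99.8, 97.6 and 97.3 in young lists (chr7:141221511-141222324). Mir210 is a microRNA gene known to respond to low oxygen. All samples had the same 3% oxygen step, so any effect of it cannot be told apart and was not tested.

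Distal regions of the lineage-restricted members called in 3 or more lists were mostly absent from aged replicate 3 and, less often, from young replicate 2. Counting all regions, young replicate 2 called 21, 18 and 23 at Irf4, Irf5 and Irf8, against 20, 20 and 17 in young replicate 1. Downstream of Irf4, a region between genes 37094 bp from the start ranked at 98.5, 92.0 and no call in aged lists, against 98.4, no call and 92.2 in young lists (chr13:30786097-30786557). In the 4 lists that called it, it ranked above the Irf4 start region. The next lay inside Exoc2, a gene of the vesicle-tethering exocyst, 43251 bp from the Irf4 start (chr13:30792306-30792663). It ranked at 95.9, 82.5 and 20.01 in aged lists, against 86.5, no call and 78.6 in young lists. One more, also inside Exoc2, was 64349 bp away and called in the 4 lists with high rates of calling, at 80.6 to 95.1.

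At Irf8, regions called in the same 4 lists lay 15798 bp after the start inside the gene, and between genes 27118 and 60168 bp after it. The one 27118 bp away ranked at 91.0, 73.9 and no call in aged lists, against 96.8, no call and 68.5 in young lists (chr8:120763321-120763631). The one 60168 bp away ranked at 87.4, 71.1 and no call in aged lists, against 92.9, no call and 72.6 in young lists (chr8:120796318-120796735). The highest by mean percentile outside the Irf8 start was at -34240 bp, at the start of the non-coding gene Gm39265 (chr8:120701795-120702442). It had 82.2, 70.0 and no call in aged lists, against 82.2, 88.8 and 37.6 in young lists, and young replicate 2 held its highest value. At Irf5 the only other region in 4 lists lay at -13084 bp inside the non-coding gene Gm26627 (chr6:29513189-29513894), at 31.0 to 92.1. A region inside Kcp at -29796 bp was called in young replicate 1 alone, at 92.9.

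**Figure D4:**
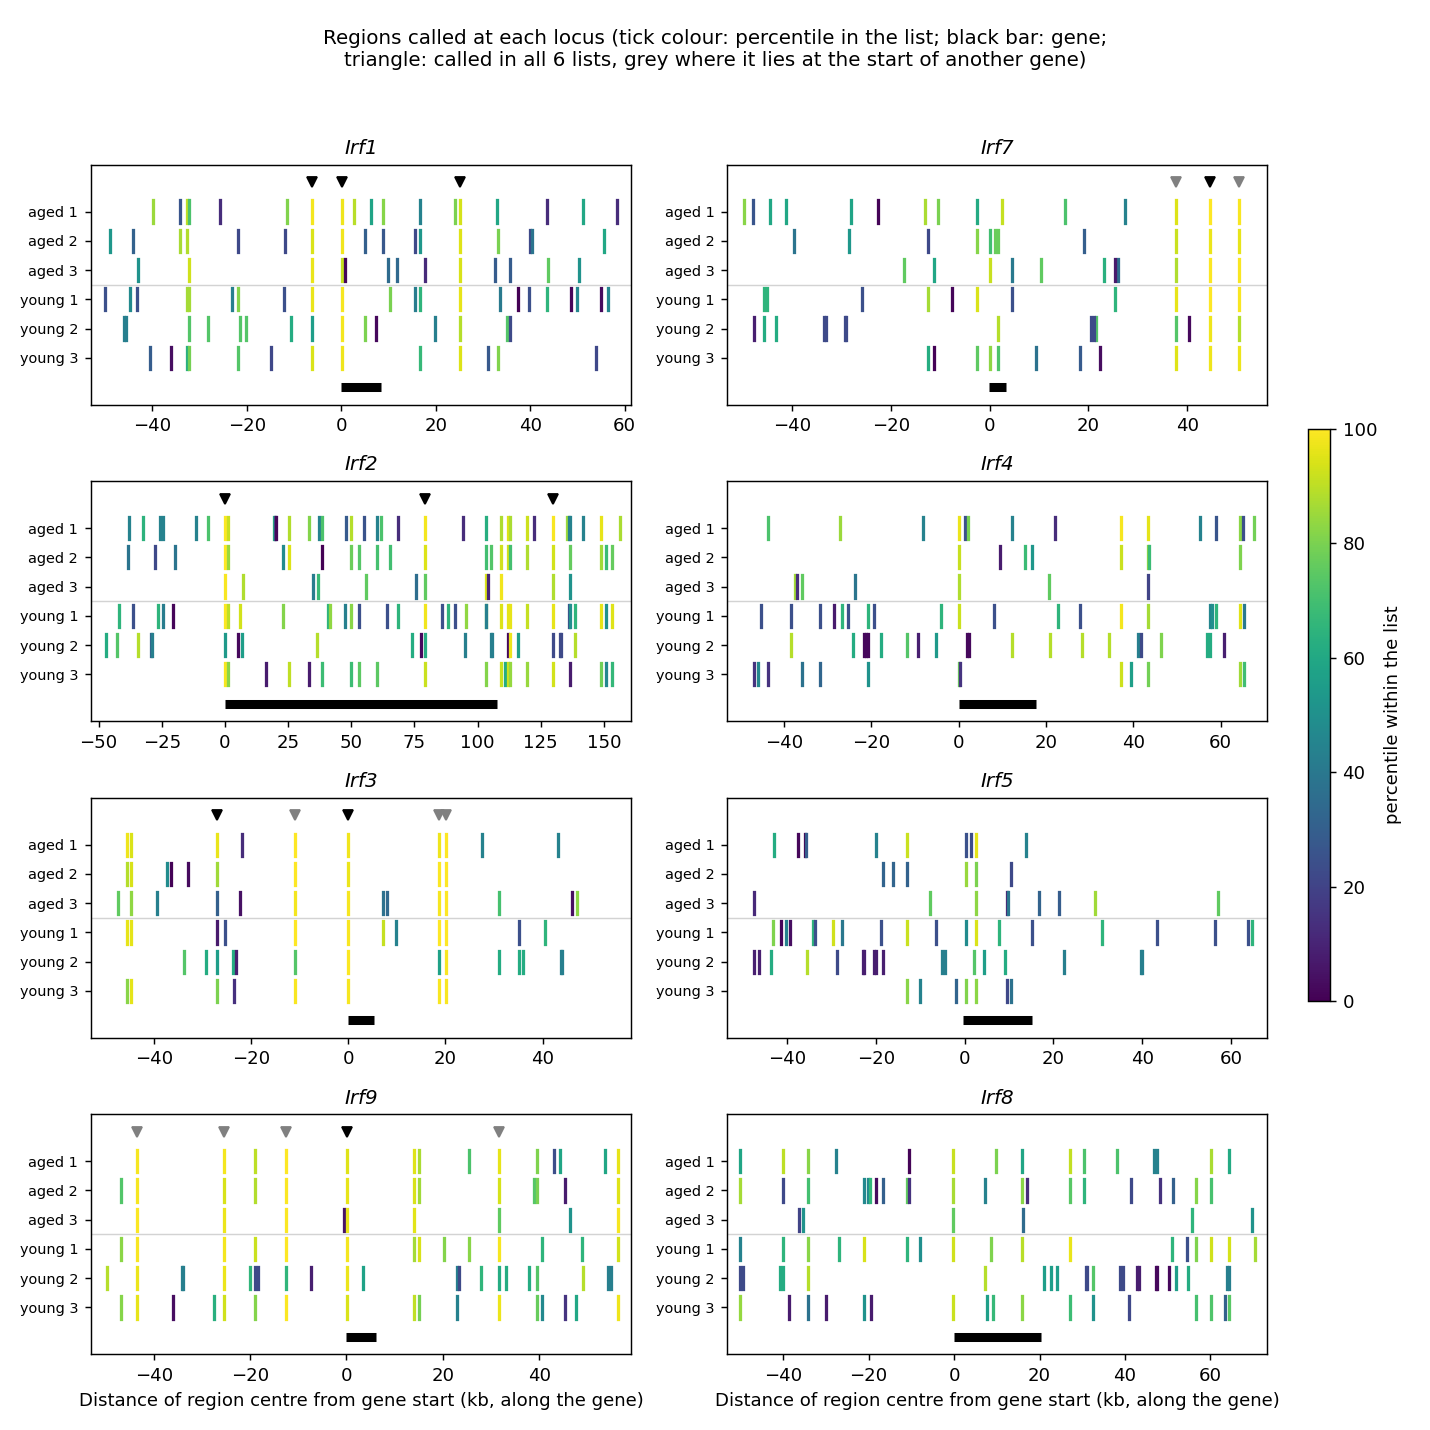
Regions called at each locus in each list (rows, aged above young) by distance of the region centre from the gene start (x axis, kb along the gene), coloured by percentile within the list, with the gene as a black bar and triangles for regions called in all 6 lists (grey at starts of other genes). The 5 ubiquitous loci carry 19 such regions in all and Irf4, Irf5 and Irf8 none.

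The classes were then set against each other within each list. The start regions of the ubiquitous class averaged 78.1, 92.0 and 95.3 in aged lists and 79.0, 69.7 and 94.4 in young lists. Those of the lineage-restricted class averaged 71.2, 87.6 and 54.6 in aged lists and 77.6, 0 and 83.6 in young lists. The ubiquitous class was higher in 6 of 6 lists, by 22.3 ± 27.2 points (SD, n = 6 lists), with 1.47 in young replicate 1 as the lowest and 69.7 in young replicate 2 as the highest. Without aged replicate 3 and young replicate 2 the mean gap was 5.89 points. Irf7 lowered the ubiquitous mean: without it the class averaged 96.3 to 97.7 in aged lists and 87.1 to 98.8 in young lists. Over all 6 lists the order of the family by mean percentile was Irf3 (98.4), Irf1 (96.8), Irf9 (96.2), Irf2 (91.7), Irf4 (74.5), Irf8 (73.1), Irf7 (40.7) and Irf5 (39.7). The place of Irf2 rested on young replicate 2, since Irf2 was the highest member in each of the 5 other lists. Irf3, Irf1 and Irf9 overlapped between lists, as did Irf4 with Irf8 and Irf7 with Irf5.

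Accessibility of the family was compared between ages next. No difference between aged and young lists was detected. Aged lists had 0.0544%, 0.0860% and 0.0623% of their peaks at the 8 loci, against 0.0576%, 0.0608% and 0.0986% in young lists. The 95% Wilson intervals, which cover counting error only, ran from 0.0459% to 0.103% over the aged lists and from 0.0491% to 0.119% over the young lists. Aged lists averaged 0.0675% ± 0.0164 and young lists 0.0723% ± 0.0228 (SD, n = 3 per age, exact 2-sided permutation p 0.7). Aged lists called 133, 110 and 81 of the 444 regions, against 150, 150 and 107 in young lists (exact permutation p 0.3).

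At the gene starts, Irf4 had the largest difference in mean percentile, with 92.3 ± 4.58 for the aged lists and 56.7 ± 49.6 for the young lists (SD, n = 3 per age, exact permutation p 0.3). The young mean holds the missing call of young replicate 2, and without that list the difference of 35.6 was 7.19. Irf8 differed by 23.2 points with all lists and by -7.61 without young replicate 2, and Irf2 by 15.3 and 0.225. Irf1, Irf3 and Irf9 differed by -2.55, -0.957 and -0.601 points, and Irf5 by -6.47. The smallest exact permutation p of the 8 members was 0.2, for Irf3. Irf7 was called in 2 aged lists and 1 young list, a difference of 26.0 points that was -6.74 without aged replicate 3 and young replicate 2.

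A limma fit of percentiles over 48800 regions called in at least 3 lists gave no region with an adjusted p under 0.05, at any locus of the genome. At an unadjusted p under 0.05 there were 1209 (2.48%) of all regions, and 0 of the 68 regions of the IRF loci that entered the fit. The standard error in the fit was 7.53 points at the Irf3 start region, near the top of the scale. The SDs there were 0.873 in aged and 0.411 in young lists. At the region 37094 bp after the Irf4 start, where missing calls count as 0, the standard error was 39.8 points. Such regions could hardly pass, so the 0 of 68 does not show an absence of change. The median difference of the 68 regions, aged minus young, was 0.751 points, against 2.22 over all regions tested. In 11 alternative fits the count of adjusted calls was also 0, with up to 4.69% of all regions and up to 6.15% of the IRF regions at an unadjusted p under 0.05. The highest share at the IRF loci was 4 of 65 regions, against 3.62% of all regions, without both aged replicate 3 and young replicate 2. With all 6 lists and no block, the smallest unadjusted limma p at an IRF locus was 0.0775, for a weak region 136450 bp after the Irf2 start (chr8:46876035-46876356), which did not pass after adjustment. It ranked at 44.1, 76.4 and 51.4 in aged lists, against 49.3, no call and 7.78 in young lists. Among the 3 highest other regions at each of the 8 loci the smallest exact permutation p was 0.1, the least possible. It was that of the Rras start region and did not pass after adjustment over these regions. The means of the Rras region were 99.9 in aged and 99.3 in young lists.

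Calls at one age alone were then counted. At the 8 loci 0 regions were aged-only (each of the 3 aged lists, no young list), against 0.0502% of all regions. The reverse, young-only, held for 1 region, against 0.0608% of all regions. The young-only region lay between genes at -20866 bp from the Irf4 start (chr13:30728155-30728580). It ranked at 65.0, 1.97 and 51.0 in young lists, values of weak peaks.

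Other genes of the interferon pathway were read at their starts from a list of 23. All 6 lists called 14 of these and 5 or more lists called 19, against 31.4% and 46.6% of all genes. The receptor genes Ifnar1, Ifnar2, Ifngr1 and Ifngr2, and the kinase genes Jak1, Jak2 and Tyk2, were among the 14. So were the adaptor genes Mavs, Ticam1 and Myd88, at mean percentiles of 98.8, 99.0 and 99.4. Tbk1, whose kinase activates Irf3, and Spi1, which encodes the PU.1 partner of Irf4 and Irf8, were called in every list but young replicate 2. Spib, the PU.1 relative of lymphoid cells, was called in no list and Ikbke in 1 aged list. Batf and Batf3, partners of Irf4 and Irf8 in lymphocytes and dendritic cells, were called in every list but aged replicate 3 and young replicate 2.

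Genes with start percentiles most like those of Irf2 over the 6 lists were Slc35e1, Map4 and Ehd4, with mean absolute differences of 0.19, 0.202 and 0.278 points. For Irf8 they were S100a11, Brd7 and Yes1, at 1.013, 1.06 and 1.28 points. The genes like Irf2 all had the tied value 53.6 in young replicate 2. Those like Irf8 all had 75.8 in aged replicate 3 and no call in young replicate 2, as Irf8 had. The likeness thus rests in part on tied or missing values in these lists. The limit of 50 kb also bears on the counts. Within the last 5 kb inside it lay 42 regions, 8 of them in 3 or more lists, and in the first 5 kb outside it 28 regions, 7 of them in 3 or more lists. The region at -49995 bp from the Irf8 start, inside Gm39265 (chr8:120686170-120686557), was among those at the limit. It had 58.9, 86.7 and no call in aged lists, against 44.3, 22.3 and 84.3 in young lists.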

How the data were processed

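Peak lists of 3 aged and 3 young samples were used, grouped by title. The submitters' processing notes name MACS2, Picard, SAMtools and Bowtie2 and the mm10 build; versions, parameters and any transposase shift are not given in the sources used here. The deposited lists give each peak a score, a fold enrichment (a ratio to the list's own background) and a -log10 p and -log10 q; these are the authors' own and depend on depth, so they were ranked within a list only. Young replicate 2 has 200 distinct -log10 p values, so its percentiles are often tied.

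Repeated intervals were merged to distinct peaks on chromosomes 1 to 19 and X, and percentiles are ranks of the -log10 p with ties averaged. Gene spans and starts came from RefSeq tables on GRCm38.p6, and all 8 members matched. They hold no exons or introns. A start region is the merged region within 1 kb of a start with the highest mean percentile over the 6 lists; for genes without a strand both ends were used. limma 3.58.1 was fitted to percentiles (0 for no call) after a test on simulated data; single values were compared by exact permutation (scipy 1.17.1). Every member was named, with its start region, its 3 highest other regions, any region called at one age alone and, for Irf2 and Irf8, the 3 genes most like them; other regions called in 4 or more lists were named after their values were seen. Members, lists and tests were chosen with earlier results of these data known.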

Additional observations from a re-analysis of the deposited data

How the results depend on the processing

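No adjusted call by age was made in any limma fit: with the replicate block (0 calls), with regions in at least 2 lists, with fold enrichment, with percentiles among tested regions, or without single lists. Of the 19 regions in all 6 lists, the count was 14 at a -log10 q of at least 1.3, 9 among the 50000 strongest peaks of each list, 7 where peaks had to cover at least 50% of the region, 6 with 10 kb flanks, 19 to 29 with 1 list left out (29 without young replicate 2) and 50 without both young replicate 2 and aged replicate 3, an alternative chosen after seeing the data. Smaller flanks hold fewer regions and fewer lists ask for fewer calls; the cause of the other changes was not tested.

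The share of peaks at the loci, aged minus young, was -0.00477 percentage points. It was 0.00294 with 10 kb flanks, and ran from -0.014 to 0.00835 with 1 list left out. Start percentiles, aged minus young, ran with 1 list left out from -3.66 to -0.385 for Irf1, 0.225 to 23.1 for Irf2, -1.37 to -0.504 for Irf3, 7.19 to 53.2 for Irf4, -30.5 to 12.5 for Irf5, 7.11 to 53.7 for Irf7, -7.61 to 38.8 for Irf8 and -1.80 to 0.278 for Irf9. Irf5 was 1.54 at the limit on q, and Irf7 and Irf8 were -6.74 and -3.15 without both doubtful lists. The gap of the classes ran from 12.8 to 26.5 points with 1 list left out, was 38.8 with Irf7 counted as lineage-restricted, and was above 0 in each alternative run.

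Samples of the same replicate number, which share an experiment number in their titles, did not deviate together: correlations over the tested regions were 0.0113, -0.199 and -0.221 for numbers 1 to 3, and no aged sample correlated best with its own number. With the replicate block the difference in share stayed -0.00477 (exact sign-flip p 0.75), and the smallest sign-flip p of the start regions was 0.25, the smallest that 3 pairs can give. Read depth is unknown, so a missing call does not show closed chromatin.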
